A study of Mus musculus with 9 samples.

Results

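Siglecs and other inhibitory surface receptors were followed in microglia, the macrophages that live in brain tissue, as a set of 9 genes taken by symbol from a table of 45664 gene symbols. The set held 4 Siglecs (Siglech, Siglece, Cd33 and Cd22), Sirpa with its ligand Cd47, and the receptor genes Cd200r1, Lair1 and Pilra. The rule that names them uses symbols alone and no measured value, and all 9 had enough counts to be tested, as had 13067 genes in all.

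Cells were taken from the visual cortex of C57BL/6 mice, all adolescent males, that had been injected under the skin with saline (5 mice) or ethanol (4 mice) from postnatal day 4 to day 9. Ethanol was given as a 20% v/v solution at 1.8 g per kg, with 2 injections a day spaced by 2 h, which made 3.6 g per kg daily. Live cells with CD11b and low CD45 were sorted from each perfused brain, and each library held the RNA of 1 mouse, so that differences between mice and those made by sorting or library preparation cannot be told apart. All mice were of the same strain and sex and carried no transgene named in the labels; they came from 3 litters, and which mouse came from which litter is not given. Saline 1 to 5 were 36, 30, 35, 29 and 30 days old and ethanol 1 to 4 were 35, 35, 30 and 30 days old, so each treatment had mice of an older (days 35 and 36, 4 mice) and a younger cohort (days 29 and 30, 5 mice).

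Library totals ranged from 12816198 to 28859244 counts. The unit of level is CPM, the count brought to a shared library size by the trimmed mean of M values, and 3 counts came to between 0.104 and 0.238 CPM in a library. The summed CPM of 8 microglial markers, P2ry12, Tmem119, Cx3cr1 and Csf1r among them, lay between 55187 and 65236. Markers of T and NK cells summed to at most 0.237 CPM. Ethanol 2 stood apart from the other libraries, and saline 1 did so to a much smaller degree. They were the highest or lowest library for 48.3% and 25.5% of the genes tested, against 15.4% to 19.7% for each of the others. An even share among 9 libraries lies between 19.7% and 25.5%, so saline 1 was only a little above it. Results that rest on saline 1 or ethanol 2 are given with and without them. In bulk RNA of this kind, fewer cells of a type and less RNA per cell cannot be told apart.

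Siglecs are lectins of the immunoglobulin superfamily that bind sialic acid at the ends of glycan chains, and many of them quiet the cell that carries them. The usual route is the immunoreceptor tyrosine-based inhibitory motif (ITIM), a short stretch of the cytoplasmic tail whose tyrosine, once phosphorylated, recruits phosphatases such as SHP-1, SHP-2 and SHIP-1. In microglia these receptors are known as brakes on phagocytosis and inflammatory activation, set by ligands that neurons and other brain cells display, among them sialic acid, CD47 and CD200.

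The coding sequences of the 9 genes, 1 transcript each, were searched for this motif, through which a receptor can recruit phosphatases by itself. Whether a matching stretch lies in the cytoplasm or is used by the cell was not tested. The motif was read as isoleucine, leucine, valine or serine, any residue, tyrosine, any 2 residues, and isoleucine, leucine or valine, in the codons after the last hydrophobic stretch. It was found in 5 of the 9 genes: 4 times in Cd22, 3 times in Sirpa, 2 times in Lair1 and once each in Siglece and Pilra. Among 7429 genes with a hydrophobic stretch, 1936 (26.1%) held at least 1 such match and 501 (6.74%) at least 2. The first match of each of the 5 genes is printed as the coding strand reads it, 5′ to 3′, with the codon of the tyrosine in capitals, from GENCODE release M21 on GRCm38.
Siglece: atacatTATgcgaccctc
Cd22: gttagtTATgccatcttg
Sirpa: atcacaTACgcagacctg
Lair1: gtgacgTATatccagctg
Pilra: atcgtgTATgcttccatc

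These stretches lie within single coding exons. The Siglece site is at chr7:43651585-43651602 on the minus strand, its tyrosine being codon 432 of 467. Cd22 has its first site at chr7:30867494-30867511 on the minus strand, at codon 783 of 868, with the other matches at codons 817, 843 and 863. For Sirpa the site is at chr2:129629954-129629971 on the plus strand, at codon 436 of 509, and the other matches are at codons 477 and 501. Lair1 has the site at chr7:4009790-4009807 on the minus strand, at codon 228 of 263, and another match at codon 257. In Pilra it is at chr5:137823571-137823588 on the minus strand, at codon 267 of 302. In Siglece, Lair1 and Pilra the tyrosine of this site stood 36 codons before the stop, and in Cd22 and Sirpa 86 and 74 codons. The shared distance was seen after the search, and whether it is more than coincidence was not tested.

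No match was found in Siglech, Cd33, Cd47 or Cd200r1, which left 23, 62, 29 and 59 codons after the hydrophobic stretch against 81 to 138 codons in the 5 genes with a match. Siglec-H is known to signal through the adaptor DAP12, encoded by Tyrobp, and CD200R1 through Dok adaptor proteins, while CD47 spans the membrane several times and serves mainly as a ligand. Of the 9 genes, 5 lie on chromosome 7, with Siglece (chr7:43651070-43660161) and Cd33 (chr7:43524216-43544428) close neighbours on the minus strand. Siglech (chr7:55768178-55778925, plus strand), Cd22 (chr7:30865402-30880342, minus strand) and Lair1 (chr7:4003402-4063204, minus strand) are spread over the rest of it. Sirpa lies at chr2:129592835-129632228, Cd47 at chr16:49800533-49915010 and Cd200r1 at chr16:44765736-44794978, all on the plus strand, and Pilra at chr5:137821952-137836281 on the minus strand.

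Levels of different genes were compared per kilobase of exon. Sirpa was highest, at 1074 ± 72.2 CPM per kilobase (SD, n = 9 libraries), followed by Siglech at 717 ± 42.6. A wide step below came Lair1 at 100.4 ± 10.1, Cd33 at 78.9 ± 3.57, Siglece at 70.5 ± 12.6 and Cd47 at 38.9 ± 2.73 CPM per kilobase. Cd200r1 (8.48 ± 0.799), Pilra (6.09 ± 1.46) and Cd22 (2.26 ± 0.512 CPM per kilobase) were lowest. Neighbours in this order overlapped over the libraries in 2 places, Cd33 with Siglece and Cd200r1 with Pilra. The 2 leading genes were thus a phagocytosis brake with 3 ITIM matches and a Siglec with none. In CPM, Sirpa ranked 13 and Siglech 34 among the 13067 genes tested, and Cd22 ranked 8199.

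The order depended in part on the length used. With the longest transcript every gene kept its rank. With the length of the transcript whose coding sequence was searched, 5 of 9 kept it: Cd33 (342.3 CPM per kilobase) then stood above Lair1 (300.6), Cd47 (185.7) above Siglece (70.5), and Sirpa (1325) overlapped with Siglech (1134).

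**Figure D1:**
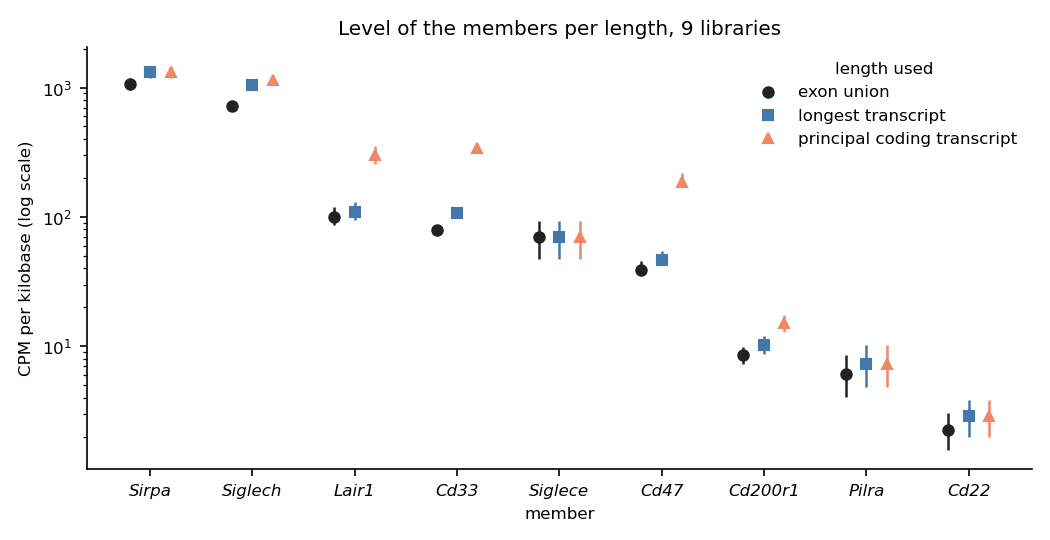
Level of each of the 9 genes in CPM per kilobase (log axis) with 3 choices of length; points are means over the 9 libraries and lines run from the lowest to the highest library. Sirpa and Siglech were highest with each length, and Cd200r1, Pilra and Cd22 stayed lowest, whereas Lair1, Cd33, Siglece and Cd47 exchanged places.

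No member of the set passed the test for a difference between ethanol and saline mice. By edgeR's quasi-likelihood test with Benjamini-Hochberg adjustment over all genes, 0 of the 9 passed 0.05, beside 0% of the 13067 genes tested (0 genes). DESeq2 and limma-voom also called 0 of the 9. At an unadjusted p under 0.05 the count was 1 of 9, Lair1, with each of the 3 tools, against 386 genes (2.95%) with edgeR, 435 with DESeq2 and 512 with limma-voom. The ranges of the groups overlapped for all 9, as they did for all but 168 of the genes tested (1.29% without overlap). The median log2 fold change of the 9 was 0.03, with 6 above 0 and 3 below, and over all genes tested it was -0.00068.

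**Figure D2:**
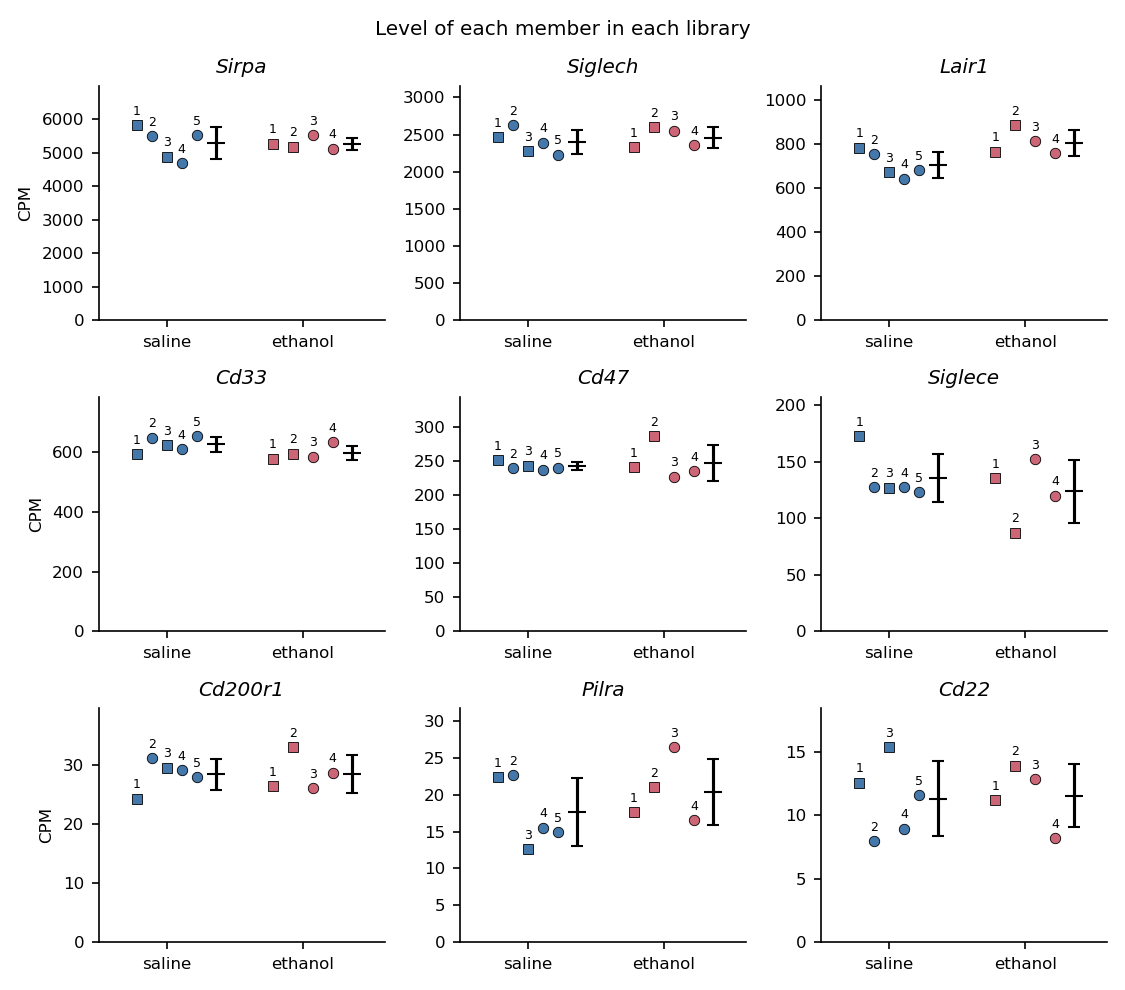
CPM of each gene (linear axes from 0, a separate scale per panel) in the saline libraries (blue) and ethanol libraries (red), numbered by replicate; squares are older mice, circles younger mice, and the bar beside each group is the mean with its SD. The groups overlap in all 9 panels; Lair1 has 4 of 5 saline libraries below every ethanol library.

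Siglece encodes Siglec-E, which restrains inflammatory activation of myeloid cells and has 1 ITIM match in its tail. It stood at 172.6, 127.6, 126.9, 127.5 and 123.2 CPM in saline 1 to 5 and at 135.6, 87.4, 152.3 and 119.9 CPM in ethanol 1 to 4. The extremes were saline 1 and ethanol 2, the libraries most often highest or lowest over all genes, and 4 of the 5 saline values lay within the range of the ethanol group. Mean levels were 135.6 ± 20.8 CPM for saline (SD, here and for all saline means n = 5) and 123.8 ± 27.7 CPM for ethanol (SD, n = 4 throughout). The log2 fold change was -0.13 ± 0.16 (SE; 95% interval -0.48 to 0.21; edgeR adjusted p = 0.963). Without saline 1 it was -0.03, without ethanol 2 it was 0.00033, and without both it was 0.10, so its sign was that of these 2 libraries. Among libraries of 1 name suffix it was -0.19 (1-5-16) and 0.12 (1-6-16); what the suffix marks is not given.

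Cd22 encodes a Siglec best known as an inhibitory coreceptor of B cells, with 4 ITIM matches. Its level was 12.6, 7.97, 15.4, 8.96 and 11.6 CPM in saline 1 to 5 and 11.2, 13.9, 12.8 and 8.20 CPM in ethanol 1 to 4, from 141 to 335 counts a library. High and low libraries were found in both groups, and the mean was 11.3 ± 2.95 CPM with saline and 11.5 ± 2.48 CPM with ethanol. The difference on the log2 scale was 0.03 ± 0.21 (SE; 95% interval -0.43 to 0.50; edgeR adjusted p = 0.988). B-cell genes were looked at beside it. Pax5 and Blk had 0 counts in every library and Ms4a1 at most 3, and the summed level of the 7 B-cell markers, 354.8 to 533.3 CPM, was 100% Ighm, leaving at most 0.345 CPM without it. An antisense gene, Gm29439, overlaps 479 bases (9.5%) of the Cd22 exons and had 0 counts throughout.

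Siglech, without an ITIM match, is an endocytic receptor shared by microglia and plasmacytoid dendritic cells. It was measured at 2465, 2628, 2274, 2391 and 2228 CPM in saline 1 to 5 and 2332, 2602, 2552 and 2357 CPM in ethanol 1 to 4. Every ethanol value fell between the lowest and the highest saline value. With means of 2397 ± 159 CPM and 2461 ± 136 CPM, the log2 fold change was 0.04 ± 0.07 (SE; 95% interval -0.11 to 0.19; edgeR adjusted p = 0.967). The 6 markers of plasmacytoid dendritic cells summed to 230.2 to 278.7 CPM, 72.4% of it from Tcf4. Brain cells of other kinds also express Tcf4, and without it the sum reached at most 89.2 CPM. Of the 6 markers 4 had enough counts to be tested, and Klk1 had 0 counts in every library. The part of such cells in the Siglech values was not tested. Tyrobp, whose product DAP12 carries the signal of Siglec-H, stood at 744.9 ± 51.9 CPM with saline and 765.1 ± 17.9 CPM with ethanol, a log2 fold change of 0.04 ± 0.07 (SE).

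Cd33, the other Siglec without a match, encodes a sialic acid receptor of myeloid cells. Its level was 592.1, 647.9, 623.9, 609.7 and 653.6 CPM in saline 1 to 5 and 578.3, 594.2, 585.1 and 632.8 CPM in ethanol 1 to 4. Ethanol 1 and 3 lay below every saline library, and ethanol 2 and 4 inside the saline range. The means were 625.4 ± 25.8 and 597.6 ± 24.4 CPM, and the log2 fold change was -0.07 ± 0.06 (SE; 95% interval -0.20 to 0.07; edgeR adjusted p = 0.963). Cd33 had the smallest coefficient of variation of the 9 genes over all libraries, 4.53%, where counting alone gives 0.899%. Without ethanol 2 the smallest was that of Cd47, at 2.94% against 4.66% for Cd33. By another measure, edgeR's gene-wise estimate of variation within the groups, 1.82% of the 220 genes of like level varied less than Cd33.

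Sirpa encodes SIRPα, which on meeting CD47 on another cell holds back phagocytosis. Saline 1 to 5 gave 5821, 5495, 4880, 4683 and 5514 CPM, and ethanol 1 to 4 gave 5266, 5171, 5520 and 5120 CPM. The ethanol values lay within the saline range. The means of 5279 ± 477 and 5269 ± 178 CPM were nearly equal, with a log2 fold change of -0.0025 ± 0.07 (SE; 95% interval -0.16 to 0.16; edgeR adjusted p = 0.998). The interval of the fold change ran from 0.892 to 1.12.

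Cd47 encodes the ligand of SIRPα, the signal that marks a cell as one not to be engulfed, and microglia carried it as well as its receptor. It stood at 251.3, 239.1, 243.0, 237.1 and 239.9 CPM in saline 1 to 5 and at 240.8, 286.4, 226.6 and 234.8 CPM in ethanol 1 to 4. The saline libraries were tightly grouped (242.1 ± 5.58 CPM), and ethanol 2 stood above all others, giving an ethanol mean of 247.2 ± 26.8 CPM. The log2 fold change was 0.03 ± 0.08 (SE; 95% interval -0.14 to 0.20; edgeR adjusted p = 0.977), and -0.05 without ethanol 2. Neurons also carry Cd47 and Sirpa. The summed level of 8 neuronal markers ran from 3.59 CPM in saline 1 to 283.1 CPM in ethanol 4. Over the libraries 89.6% of that sum was Kif5a, leaving at most 28.3 CPM without it. Sirpa was highest in saline 1, the library where this sum was lowest, and Cd47 was second highest there, which is 1 library only. The part of neuronal RNA in either value was not tested.

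Cd200r1 encodes the receptor for CD200, through which neurons keep microglia quiet. Values of 24.2, 31.1, 29.5, 29.1 and 27.8 CPM were found in saline 1 to 5 and of 26.4, 33.0, 26.0 and 28.6 CPM in ethanol 1 to 4. The lowest library, saline 1, and the highest, ethanol 2, were those most often highest or lowest over all genes. The means were 28.3 ± 2.58 and 28.5 ± 3.20 CPM, a log2 fold change of 0.0087 ± 0.11 (SE; 95% interval -0.23 to 0.24; edgeR adjusted p = 0.993). Without those 2 libraries the log2 fold change was -0.12. Transcripts of the ligand Cd200 reached at most 9 counts in a library.

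Lair1 encodes an inhibitory receptor for collagen and for the complement protein C1q, with 2 ITIM matches. Its level was 782.7, 754.6, 671.1, 643.3 and 681.2 CPM in saline 1 to 5 and 765.1, 885.6, 812.3 and 758.0 CPM in ethanol 1 to 4. All 4 ethanol libraries lay above 4 of the 5 saline libraries, the exception being saline 1. The means were 706.6 ± 59.2 CPM with saline and 805.2 ± 58.8 CPM with ethanol, a fold of 1.14 (95% interval 1.01 to 1.29). On the log2 scale the difference was 0.19 ± 0.08 (SE), and it did not pass edgeR's quasi-likelihood test after Benjamini-Hochberg adjustment (adjusted p = 0.963). It kept its sign under all 22 alternatives, with log2 fold changes of 0.13 to 0.33 and adjusted p of 0.793 to 1.000. The difference was 0.33 among libraries with the suffix 1-5-16 and 0.13 among those with 1-6-16. It was 0.18 in the older and in the younger cohort taken alone. Without ethanol 2, the highest library, it was 0.14, without saline 1 it was 0.23, and without both it was 0.18. With all libraries edgeR's unadjusted p for Lair1 was 0.038. On leaving out 1 library it rose to between 0.075 and 0.097 without saline 3, 4 or 5 or ethanol 2 or 3. Without saline 1 or 2 or ethanol 1 or 4, the unadjusted p for Lair1 was 0.015 to 0.041. C1qa, which encodes a chain of its ligand C1q, was at 3197 ± 261 CPM with saline and 3289 ± 212 CPM with ethanol (log2 fold change 0.04 ± 0.08, SE). The microglial marker sum moved the same way as Lair1 by a smaller proportion, 57838 ± 3221 CPM with saline against 60802 ± 4365 CPM with ethanol (exact two-sided permutation p = 0.246, adjusted over 10 marker lists 0.476), and its part in the Lair1 values was not tested.

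Pilra encodes PILRα, the inhibitory member of a pair of receptors that bind sialylated O-glycoproteins, with 1 ITIM match. It stood at 22.4, 22.6, 12.6, 15.5 and 14.9 CPM in saline 1 to 5 and 17.6, 20.98, 26.4 and 16.5 CPM in ethanol 1 to 4. The saline libraries fell into a high pair (saline 1 and 2) and 3 low ones, and all ethanol libraries lay above the 3 low ones. With means of 17.6 ± 4.60 and 20.4 ± 4.45 CPM, the log2 fold change was 0.21 ± 0.20 (SE; 95% interval -0.23 to 0.66; edgeR adjusted p = 0.963), the largest of the 9 in size. It was 0.06 without ethanol 3 and 0.30 without saline 1 and ethanol 2. Ethanol 3, the highest library for Pilra, was also highest for markers of border macrophages (91.3 CPM, 94.9% of that sum over the libraries being Mrc1, against 39.1 to 40.9 CPM in the other ethanol libraries and 48.4 to 81.7 CPM with saline). Saline 4 had the second highest sum of these markers, 81.7 CPM, with Pilra at 15.5 CPM. Ethanol 2 had the lowest sum, 39.1 CPM, with Pilra at 20.98 CPM. Ethanol 3 also gave the highest ethanol value of Siglece. It was highest for markers of monocytes and neutrophils, at 16.0 CPM against 4.69 to 8.74 CPM elsewhere. Over the libraries 86.7% of that sum was Ccr2, leaving at most 2.01 CPM without it. S100a8 and S100a9 had 0 counts in every library, and Ly6c2 and Ly6g at most 3. The part of cells other than microglia in the Pilra and Siglece values was not tested. Zcwpw1, a gene on the opposite strand at 19.8 to 32.3 CPM, overlaps 468 bases (15.1%) of the Pilra exons, and whether reads were counted by strand is not given.

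**Figure D3:**
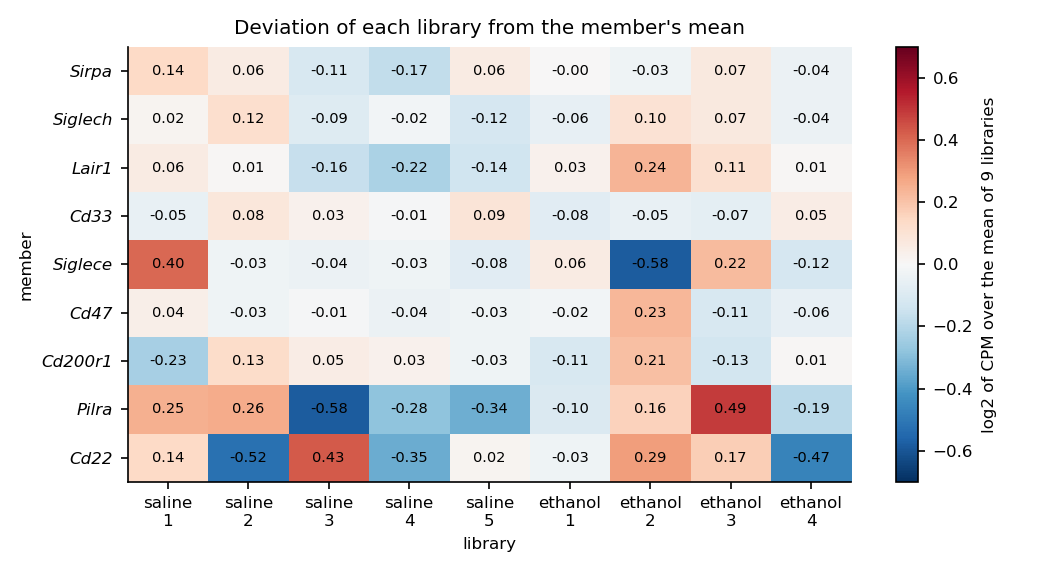
Each library's level of each gene as log2 of its CPM over the mean of the 9 libraries, with genes ordered by level per length. Siglece runs from 0.40 in saline 1 to -0.58 in ethanol 2, Pilra and Cd22 vary in both groups, and the rows of Sirpa, Siglech and Cd33 stay close to 0.

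Spread between libraries differed among the genes, and counting error was the smaller part of it. Over the 9 libraries the coefficient of variation was 4.53% to 10.1% for Cd33, Siglech, Sirpa, Cd47, Cd200r1 and Lair1, and 17.8%, 22.7% and 23.9% for Siglece, Cd22 and Pilra, with counting alone giving 1.97%, 6.64% and 5.13% for the latter 3. Saline 1 and ethanol 2 were the highest and lowest libraries of Siglece, so leaving them out had to narrow its range. Its coefficient of variation was then 8.25% and its highest library 1.27-fold above its lowest, against 1.98-fold with them. The extremes of Cd22 (saline 3 and saline 2) and Pilra (ethanol 3 and saline 3) were other libraries. Their ranges of 1.93-fold and 2.10-fold therefore could not change, and their coefficients of variation became 24.9% and 26.8%. The spread of Cd22 and Pilra without their own extremes was not examined, so this does not set the 3 genes apart. Genes of like level were compared, with all 9 libraries, by edgeR's gene-wise estimate of variation within the groups. By that estimate 81.8% varied less than Siglece, 78.7% less than Cd22 and 86.7% less than Pilra. It is drawn towards the trend over all genes and is not the coefficient of variation given above.

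The precision reached allows the size of an unseen ethanol difference to be bounded. For 8 of the 9 genes the 95% interval of the ethanol fold change lay within 1.5-fold in either direction, Pilra being the exception, and for all 9 it lay within 2-fold. Each interval holds for its gene alone and takes the mice as independent, though the litter of each is not known. Of all genes tested, 59.4% had an interval within 1.5-fold and 79.3% within 2-fold, and of the 8480 genes with a mean of at least 10 CPM, a level that all 9 reached, 84.4% and 97.7%. The median size of the log2 fold change was 0.04 for the 9 genes and 0.12 for all genes tested.

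**Figure D4:**
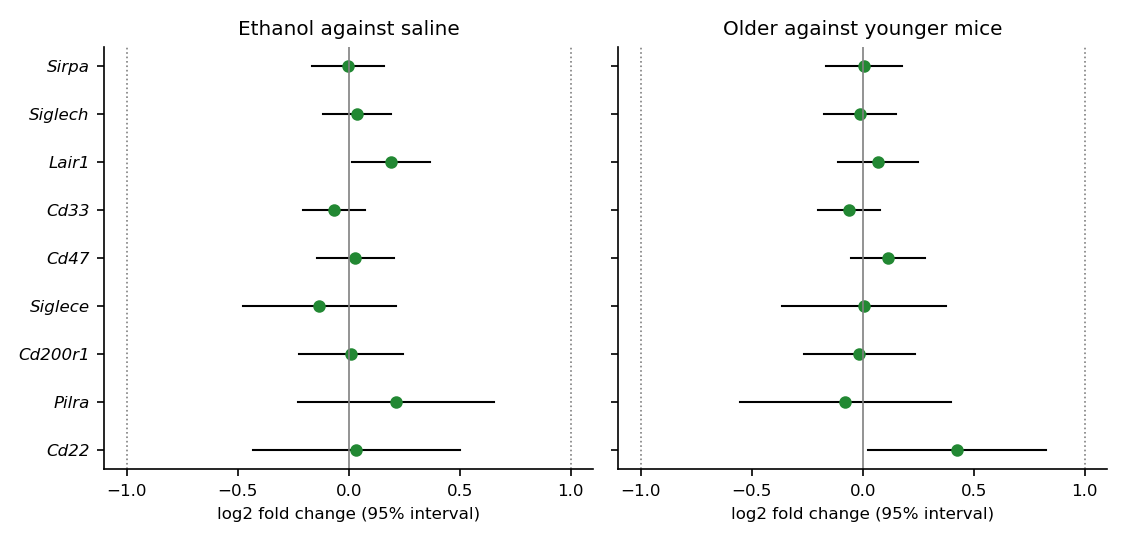
log2 fold change of each gene (point) with its 95% interval (line) for ethanol against saline (left) and for older against younger mice (right); dotted lines mark a 2-fold difference. For ethanol only the interval of Lair1 leaves out 0 (0.01 to 0.36), and for age only that of Cd22 (0.02 to 0.82); neither passed adjustment over all genes.

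Older and younger mice were compared with ethanol as a covariate. By edgeR's quasi-likelihood test 0 of the 9 genes passed (0% of all genes tested), and 1 had an unadjusted p under 0.05, beside 372 genes (2.85%) over the table; DESeq2 likewise gave 0 and 1, beside 451. That gene was Cd22, at 13.3 ± 1.79 CPM in 4 older mice and 9.91 ± 2.17 CPM in 5 younger mice. Its log2 fold change was 0.42 ± 0.18 (SE; 95% interval 0.02 to 0.82; edgeR adjusted p = 0.973). Across 15 alternatives the sign of Cd22 held, and its adjusted p ranged from 0.646 to 1. Cd47 was the only one of the 9 whose cohorts did not overlap, 240.8 to 286.4 CPM in older and 226.6 to 239.9 CPM in younger mice, as was the case for 162 genes (1.24%) over the table. Its difference of 0.12 ± 0.08 on the log2 scale (SE) had an adjusted p of 0.973 by edgeR and was 0.06 without ethanol 2. The name suffixes split the mice in nearly the same way as age. Suffix 1-6-16 held 4 younger mice and no older one, and 1-5-16 held 3 older mice and 1 younger one. Suffix 1-X-16 held 1 older mouse, saline 1. These are too few for an age comparison within a suffix. Age and suffix therefore cannot be told apart.

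Whether ethanol acted differently in the cohorts was tested by the interaction term. With edgeR 0 of the 9 genes passed and 0 had an unadjusted p under 0.05 (423 genes over the table, 3.24%, 0% of them called after adjustment), and with DESeq2 the counts for the 9 were also 0 and 0, with 1 gene called among all. Siglece came nearest: its ethanol difference was -0.43 in older and 0.11 in younger mice on the log2 scale, an interaction of -0.54 ± 0.30 (SE; 95% interval -1.22 to 0.14; edgeR adjusted p = 0.972). The interaction was -0.30 without saline 1, -0.25 without ethanol 2 and -0.0052 without both, which leaves 1 older mouse in each treatment.

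The machinery around these receptors was read from 6 lists holding 91 genes, 89 of them in the table and 69 tested. Of the 69, 32 had a log2 fold change above 0 for ethanol and 37 below, and 0 passed by edgeR's quasi-likelihood test, DESeq2 or limma-voom. At an unadjusted p under 0.05 there were 2 (2.9%) with each tool, against 2.95% of all genes with edgeR, 3.33% with DESeq2 and 3.92% with limma-voom. With edgeR and DESeq2 they were Cd300lf and Syk, and with limma-voom Cd300ld and Syk. None of the 69 passed for age either.

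Of 5 other Siglecs, 4 were tested and Siglec15 had 0 counts; 3 were above 0 and 1 below (median log2 fold change 0.13). Siglecf, a Siglec of eosinophils and some macrophages and the highest here, was at 77.5 ± 9.47 CPM with saline and 84.3 ± 19.3 CPM with ethanol. Mag, the Siglec of myelin, had the smallest p of the list at 26.2 ± 1.59 and 29 ± 1.70 CPM (log2 fold change 0.15 ± 0.09, SE). The oligodendrocyte marker sum, which includes Mag, stood at 221.4 ± 24.4 CPM with saline and 239.3 ± 15.4 CPM with ethanol, and its part in the Mag values was not tested. Siglecg, chosen after its values were seen, was the list gene with an unadjusted p under 0.05 for age (log2 fold change -0.55 ± 0.18, SE, older against younger; edgeR adjusted p = 0.973), opposite in sign to Cd22.

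Among 15 tested of 18 other inhibitory receptors of myeloid cells, 7 were above 0 and 8 below (median -0.01). Vsir, encoding the checkpoint receptor VISTA and listed in the table under an older symbol, was highest at 2752 ± 184 CPM with saline and 2629 ± 200 CPM with ethanol (log2 fold change -0.07 ± 0.07, SE). Cd300lf, a receptor for membrane lipids, had values of 3.20, 1.72, 7.96, 4.87 and 5.64 CPM in saline 1 to 5 and 1.43, 2.57, 3.15 and 2.17 CPM in ethanol 1 to 4. The groups overlapped, and the log2 fold change of -0.99 ± 0.41 (SE) passed before adjustment only (edgeR adjusted p = 0.963). It was -1.65 among libraries with the suffix 1-5-16 and -0.46 among those with 1-6-16.

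Most activating relatives of the 9 receptors had few counts or none. Pilrb1, Pilrb2, Sirpb1a, Sirpb1b, Sirpb1c, Cd200r2 and Cd200r3 reached at most 5, 6, 0, 1, 2, 0 and 2 counts in any library and were not tested, as far as reads of such close copies can be assigned. Cd200r4, an activating relative of Cd200r1 chosen here after its values were seen, was tested at 0.853 ± 0.476 CPM with saline and 0.592 ± 0.166 CPM with ethanol, at most 33 counts. The same list held Cd300lb and Cd300ld of the Cd300 family and the adaptor genes Tyrobp and Hcst. Of its 5 tested genes, the 2 adaptor genes were above 0 and the 3 receptor genes below (median -0.17). Cd300ld had the smallest p, from 0.851 ± 0.520 CPM with saline to 0.267 ± 0.316 CPM with ethanol (log2 fold change -1.50 ± 0.86, SE), with 0 counts in ethanol 1 and 3. At this depth the fitted value moved widely, to -2.30 without ethanol 2 and -3.36 with limma-voom, where the gene did not pass after adjustment either.

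Ligands and genes that modify them gave 5 tested genes of 12, 4 above 0 and 1 below (median log2 fold change 0.14). C1qa was highest. Clu had the smallest p and was at 19.6 ± 13.6 CPM with saline and 35.5 ± 12.01 CPM with ethanol (log2 fold change 0.85 ± 0.66, SE), with 0.449 CPM in saline 1. Clu is also an astrocyte gene, and the astrocyte marker sum was likewise lowest in saline 1, at 273.2 CPM against 358.6 to 575.1 CPM elsewhere; its part in the Clu values was not tested. Without saline 1 the log2 fold change of Clu was 0.54.

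All 20 phosphatases, kinases and adaptors downstream were tested, and 7 were above 0 and 13 below (median -0.08). Inpp5d, which encodes SHIP-1, was highest at 1642 ± 89.5 CPM with saline and 1459 ± 213 CPM with ethanol (log2 fold change -0.17 ± 0.10, SE), a difference of -0.08 without ethanol 2 and -0.04 without saline 1 and ethanol 2. Syk, the kinase of the activating arm that ITIM receptors oppose, was at 323.4, 307.3, 338.7, 314.3 and 328.8 CPM in saline 1 to 5 and 321.9, 192.0, 268.2 and 262.1 CPM in ethanol 1 to 4. Ethanol 1 lay within the saline range, and the 3 other ethanol libraries lay below it. The log2 fold change of -0.31 ± 0.12 (SE) likewise passed before adjustment only (edgeR adjusted p = 0.963), and was -0.19 without ethanol 2.

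Sialic acid, the ligand of the Siglecs, is made, attached and removed by the genes of the last list. Of 24 genes 20 were tested, 9 above 0 and 11 below, with a median of -0.06. St3gal6, a sialyltransferase, was highest at 409.6 ± 44.4 and 418.0 ± 51.6 CPM (log2 fold change 0.03 ± 0.10, SE). Neu3, a sialidase of the plasma membrane, had the smallest p, at 6.79 ± 2.19 CPM with saline and 4.77 ± 1.29 CPM with ethanol (log2 fold change -0.52 ± 0.26, SE; edgeR adjusted p = 0.963). Its log2 fold change was -0.32 without saline 1, the library with the highest level, and -0.26 without saline 1 and ethanol 2.

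**Figure D5:**
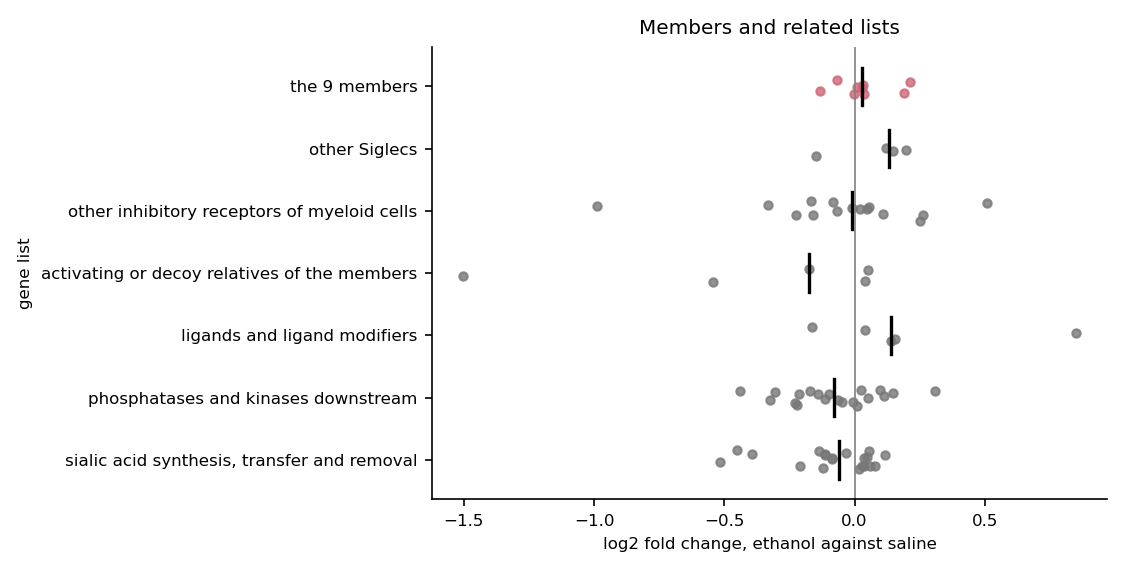
log2 fold change for ethanol against saline of the 9 genes (red) and of the tested genes of 6 related lists (grey), 1 point per gene, with the median as a black bar. Medians lie between -0.17 and 0.14, and the points farthest from 0 are the thinly counted Cd300ld and Cd300lf and the astrocyte-linked Clu.

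Genes whose profile over the 9 libraries was most like that of a member were sought among 8115 genes of at least 10 CPM, predicted genes, Rik genes and pseudogenes being passed over, by the root-mean-square difference of log2 CPM after centring. For Sirpa, the highest member, these were Pja2 (0.05) and Sptlc2 (0.05), where the SD of Sirpa itself was 0.10 and the median gene differed by 0.19. Without saline 1 and ethanol 2 they fell to ranks 52 and 38. For Pilra, the member with the largest ethanol difference in size, they were Qpctl (0.13) and Tnfrsf13b (0.13), where the SD of Pilra was 0.34 and the median gene differed by 0.37. Without those libraries they stood at ranks 2 and 4. The libraries kept had also served to pick the genes, so these ranks are no independent check. How near the best of 8115 genes would come by chance was not examined. Qpctl, also in the list of ligand modifiers, encodes an enzyme that modifies CD47 so that SIRPα can bind it. It stood at 25.5 ± 4.96 CPM with saline and 28.4 ± 2.71 CPM with ethanol, and a link between Qpctl and Pilra was not tested.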

How the data were processed

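Per the labels' protocols, microglia were sorted from the visual cortex of 9 mice. The authors deposited 1 table of raw counts per gene symbol, with no normalization. Trimmomatic 0.32, STAR 2.4.2a, HTSeq 0.6.1 and the build GRCm38.p4 are listed in the submitters' processing notes; settings, annotation release and strandedness were not given in the sources used here. Counts of close copies (Pilra and its activating relatives, Sirpa and the Sirpb1 genes, the Cd200r genes, the Siglecs) are therefore uncertain.

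Genes were kept by filterByExpr (minimum count 10, minimum total 15), scaled by TMM and tested with edgeR 4.0.16 (R 4.3.3), by the quasi-likelihood F test with Benjamini-Hochberg adjustment over 13067 genes at 0.05. SE was the size of the fold change over the root of F, and gave the 95% intervals. The common coefficient of variation between libraries was 0.208. Alternatives were DESeq2 1.42.0, limma-voom (limma 3.58.1), RLE size factors, other filters, age, suffix or replicate number as a term, each suffix or age cohort alone, and leaving out libraries; the length of the searched coding transcript, and the spread of each member without saline 1 or ethanol 2, were added after the data were seen. Marker sums were compared by exact permutation over 126 splits (Python 3.11.15, scipy 1.17.1). The procedure was tested on simulated data. Replicate numbers did not pair the mice.

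Lengths, coordinates and coding sequences came by symbol from GENCODE M21 on GRCm38. The hydrophobic stretch was the last window of 19 codons with a mean hydropathy of at least 1.6, after the first 40 codons. Genes of like level were those within 1.5-fold.

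All 9 members were named. Each list was represented by its highest gene and that with the smallest p for ethanol, and the most alike genes were printed for 2 members; any other list gene was chosen after its values were seen. Members and lists were chosen with earlier results of these data known. Some markers of the cell type lists are not reported here by name.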

Additional observations from a re-analysis of the deposited data

Results flagged for a closer look

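Of 62 groups of libraries examined, 8 held a library far from the others of its group by Dixon's criterion. Chance alone meets it in about 1 of 20 groups if values are normally distributed. These groups were drawn from the same 9 libraries and shared some genes, such as Mag within the oligodendrocyte sum. They are not independent, so the count cannot be read as an excess over chance. Among the 9 receptors only Siglece held such a library, with saline 1 at 172.6 CPM against 123.2 to 127.6 CPM in the other saline libraries.

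Saline 1 also stood apart in the microglial marker sum (63425 CPM against 55187 to 57306), in Vsir (3070 CPM against 2602 to 2732) and in Inpp5d (1796 CPM against 1577 to 1639). Ethanol 3 stood apart in the markers of border macrophages (91.3 CPM against 39.1 to 40.9) and in Mag (31.5 CPM against 27.9 to 28.4). Ethanol 4 stood apart in the markers of oligodendrocytes (262.4 CPM against 230.3 to 233.0) and in C1qa (2972 CPM against 3377 to 3417).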

How the results depend on the processing

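For ethanol against saline, the count of genes called was 0 under all 22 alternatives. Lair1, Pilra, Siglech and Cd33 kept their sign in all of them; of the 198 values of the 9 receptors, 163 kept their sign and 35 reversed, and none was called (smallest adjusted p 0.793). All values below are log2 fold changes unless named otherwise, and the cause of each change was not tested. Saline 1 alone carried the suffix 1-X-16, so with the suffix as a term it adds nothing to the ethanol difference. With 4 and 5 mice taken as independent, the intervals, gene by gene, leave out ethanol differences beyond 2-fold for all 9 receptors. They leave out differences beyond 1.5-fold for all but Pilra, and the interaction is bounded within 2-fold for 6 of 9.

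Replicate numbers came only from the labels: the same-number correlations of deviations were -0.016, -0.01, -0.054 and -0.014, and no library matched its own number best, so the numbers did not pair the mice. With the replicate number as a block, 0 genes were called and 240 had an unadjusted p under 0.05 against 386 without it, Sirpa was 0.019 and St3gal6 -0.0082.

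For ethanol, reversals were: with limma-voom Siglece 0.032, Sirpa 0.035, Cd47 -0.029, Cd200r1 -0.074 and St3gal6 -0.018; with the suffix as a term Sirpa 0.039 and Cd200r1 -0.044; among suffix 1-5-16 Sirpa 0.13 and Tyrobp -0.020; among suffix 1-6-16 Siglece 0.12, Cd47 -0.055, Cd200r1 -0.11, Vsir 0.033 and St3gal6 -0.15; in older mice Cd22 -0.15 and C1qa -0.0058; in younger mice Siglece 0.11, Sirpa 0.022, Cd47 -0.052, Cd200r1 -0.11, Vsir 0.030 and St3gal6 -0.12; without saline 1 and ethanol 2 Siglece 0.10, Cd22 -0.030, Sirpa 0.043, Cd47 -0.036, Cd200r1 -0.12, Vsir 0.026 and St3gal6 -0.073. Leaving out 1 library at a time gave Siglece -0.25 to 0.00033, Cd22 -0.075 to 0.17, Sirpa -0.042 to 0.035, Cd47 -0.052 to 0.070, Cd200r1 -0.073 to 0.053, Siglecf -0.027 to 0.23 and St3gal6 -0.063 to 0.098.

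For age, 97 genes were called with no count filter and 3 without saline 1 and ethanol 2, where Sirpa was -0.062 and Lair1 -0.045. Leave-one-out ranges were -0.040 to 0.029 for Siglech, -0.16 to 0.16 for Siglece, -0.059 to 0.050 for Sirpa, -0.098 to 0.072 for Cd200r1 and -0.29 to 0.068 for Pilra. For the interaction, 1 gene was called with DESeq2, 53 with no count filter and 0 to 848 on leaving out 1 library, 848 being without ethanol 1, when ethanol 2 was the only older ethanol mouse; Siglece then had an adjusted p of 0.069, and none of the 9 was called. Without saline 1 and ethanol 2 the interaction was -0.035 for Cd33, 0.095 for Sirpa, -0.048 for Cd200r1 and 0.22 for Pilra. Leave-one-out ranges were -0.048 to 0.14 for Siglech, -0.041 to 0.071 for Cd33, -0.59 to 0.060 for Cd22, -0.18 to 0.072 for Sirpa, -0.11 to 0.14 for Lair1 and -0.49 to 0.35 for Pilra.

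Marker sums, as ethanol minus saline, ranged on leaving out 1 library from -1.02 to 2.69 CPM for monocytes and neutrophils, -0.0033 to 0.056 CPM for T and NK cells and -17.2 to 53.0 CPM for neurons; as mean log2(CPM + 1), monocytes and neutrophils were at -0.055. The order by level kept 5 of 9 ranks with the searched coding transcript.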
